A study of Mus musculus with 6 samples.

Results

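The Egr family and a set of other immediate early genes were described in satellite cells, which are the resident stem cells of muscle, directly after their isolation. The 10 genes were chosen by symbol, without use of a threshold on their values: Egr1, Egr2 and Egr3, the co-repressors Nab1 and Nab2, and Ier2, Nr4a1, Btg2, Zfp36 and Dusp1. They are 10 of the 54115 genes to which reads could be summed, and all 10 were among the 17152 genes with enough reads to test. Satellite cells came from uninjured hindlimb muscle of C57BL/6J mice of 6 to 8 weeks, in 3 Pax7WT and 3 Pax7KR samples that were labelled as biological replicates. Pax7KR mice carry arginine in place of a lysine of PAX7 (K193R), introduced by CRISPR/Cas9, and Pax7WT mice carry the unchanged allele. Heterozygous mice were interbred, and homozygous offspring were compared with their WT littermates. The substitution is in the germ line, so it is carried by every cell of the animal and not by satellite cells alone. All samples of both genotypes were sorted by the same gate, positive for CD34 and α7-INTEGRIN and negative for CD31, CD45, CD11b and SCA-1, and each library was made from 15 ng of RNA with a directional kit. The comparison addressed which transcripts differ when this lysine of PAX7 can no longer be acetylated.

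Immediate early genes are transcribed soon after a stimulus, through factors already present in the cell such as serum response factor and CREB, and need no new protein synthesis. Many of their transcripts are short-lived and encode transcription factors, regulators of mRNA decay, or phosphatases that shut off the kinases which induced them. In satellite cells they are known as a hallmark of cells that have been taken out of the muscle, because enzymatic dissociation itself induces them. EGR proteins are zinc finger transcription factors, and NAB1 and NAB2 bind EGR1, EGR2 and EGR3 and limit their activity.

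Sequence just upstream of the start site was read for the members to show which letters known to be bound by these inducing factors they hold. RefSeq promoter windows (build GRCm38.p6) matched 7 of the 10 members, namely Egr2, Nab1, Nab2, Nr4a1, Btg2, Zfp36 and Dusp1. In the 250 bases before the start, both strands were searched for the CArG box (CC, then A or T only, then GG), which serum response factor binds, for the CREB motif TGACGTCA and its shorter form TGACG, for the EGR motifs GCGTGGGCG and GCGGGGGCG, for the NR4A motif AAAGGTCA, for the AP-1 motif TGANTCA and for a paired HOX-type homeobox core. Positions count back from the RefSeq start, and the windows of Zfp36 and Dusp1 are shown without the last bases, which another annotation counts as transcribed. TGACG lies within TGACGTCA, so a window with the longer form counts for both. Capitals mark every match in the 5 windows shown 5′ to 3′ on the strand of the gene, of which Egr2 and Zfp36 are shown for the CArG box, Btg2 and Dusp1 for TGACGTCA, and Nr4a1 for repeated TGACG:
Egr2 (chr10:67537619-67537868, plus strand): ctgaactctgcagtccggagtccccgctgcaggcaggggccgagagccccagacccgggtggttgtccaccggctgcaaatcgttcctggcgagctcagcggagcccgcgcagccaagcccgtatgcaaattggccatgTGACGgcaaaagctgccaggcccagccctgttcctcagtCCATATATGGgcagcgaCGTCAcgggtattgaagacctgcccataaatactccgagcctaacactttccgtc
Zfp36 (chr7:28379256-28379478, minus strand): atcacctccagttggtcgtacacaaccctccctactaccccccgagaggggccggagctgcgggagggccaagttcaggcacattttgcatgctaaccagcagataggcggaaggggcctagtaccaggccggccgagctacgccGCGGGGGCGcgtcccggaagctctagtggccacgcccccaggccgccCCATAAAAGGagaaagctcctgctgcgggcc
Btg2 (chr1:134079156-134079405, minus strand): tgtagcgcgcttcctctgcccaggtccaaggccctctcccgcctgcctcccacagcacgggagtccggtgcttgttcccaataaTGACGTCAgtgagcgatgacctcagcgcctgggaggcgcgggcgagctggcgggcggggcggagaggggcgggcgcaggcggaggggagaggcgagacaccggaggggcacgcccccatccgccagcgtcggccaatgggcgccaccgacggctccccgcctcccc
Dusp1 (chr17:26508520-26508722, minus strand): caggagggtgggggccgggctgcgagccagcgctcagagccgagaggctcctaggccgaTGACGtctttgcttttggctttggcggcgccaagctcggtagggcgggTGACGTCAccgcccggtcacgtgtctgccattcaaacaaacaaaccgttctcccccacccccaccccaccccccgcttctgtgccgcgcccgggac
Nr4a1 (chr15:101266596-101266845, plus strand): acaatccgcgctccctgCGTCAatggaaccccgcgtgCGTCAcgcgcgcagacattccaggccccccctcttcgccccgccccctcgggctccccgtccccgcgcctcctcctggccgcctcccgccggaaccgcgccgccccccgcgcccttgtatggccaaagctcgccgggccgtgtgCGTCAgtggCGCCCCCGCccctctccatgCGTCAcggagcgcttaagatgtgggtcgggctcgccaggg
The CArG box was found in 2 of the 7 windows, as CCATATATGG between 72 and 63 bases before the Egr2 start and as CCATAAAAGG between 58 and 49 bases before the Zfp36 start, against 1.47% of all 32851 windows of that length. TGACGTCA was found in 2 of 7 windows, those of Btg2 and Dusp1, against 1.55% of all windows. TGACG was found in 5 of 7 windows, with 4 copies in that of Nr4a1, against 17.8% of all windows. GCGTGGGCG lay in 1 window, that of Nab1, which held 2 copies, against 0.536% of all windows, and GCGGGGGCG lay in 3 windows, those of Nab1, Nr4a1 and Zfp36, against 2.57%. In the Nab1 window, however, 231 of the 250 bases lie inside the span of its transcript with the most reads. All Nab1 matches, including that of TGACG, fall in this part and not upstream of that transcript. AAAGGTCA, TGANTCA and the homeobox core had 0 matches in the 7 windows, against 1.34%, 6.75% and 0.384% of all windows. The share of G and C in the 7 windows ran from 61.6% to 80.8%, against a median of 52.4% over all windows. These matches describe the letters in the windows and are not evidence of binding in these cells.

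The member genes are mostly short. In 9 of the 10, the transcript with the most reads spanned under 10 kb of genome, against 26.3% of 13272 tested genes with an annotated 3′ UTR, and the median span was 4135.5 bases against 22628.5. Their 3′ UTRs were searched for TATTTAT, the core of the AU-rich element that ZFP36 binds in short-lived mRNAs, a search that was added after the expression values were seen. TATTTAT was found in 5 of 10 members, in 31 of 49 other immediate early genes (63.3%) and in 28.8% of the tested genes, and per kilobase of 3′ UTR it occurred 0.711, 0.781 and 0.287 times. Zfp36 itself and Dusp1 held 3 copies each, and Nab1, Nab2 and Btg2 held 1. The first copy is shown in 3 genes of GRCm38, with the motif in capitals:
Btg2 (chr1:134077252-134077274, minus strand): tgaagagcTATTTATacatgttt
Zfp36 (chr7:28376969-28376991, minus strand): gggcccttTATTTATgacgactt
Dusp1 (chr17:26506162-26506184, minus strand): ctggtcctTATTTATttaacacc

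Depth ran from 17822367 reads in Pax7WT replicate 2, the shallowest library, to 27908054 in Pax7WT replicate 1, and each member had between 159 and 293954 reads in a library. Values are CPM, a gene's share of the reads scaled to a fixed total after adjusting each library by TMM, unless given as TPM, which also divides by transcript length and is used to compare genes with each other. Pax7 itself lay between 1410 and 1666 CPM in the 6 libraries, and its log2 fold change was −0.05. The values count reads per gene, so they carry no reading of the substitution. The summed CPM of 13 satellite cell markers, among them Myf5, Vcam1 and Calcr, ran from 7313 to 8038. Of 8 endothelial markers the sum ran from 262 to 364 CPM, most of it Tek (184 to 231 CPM), and of 7 tested immune markers from 8.09 to 12.9 CPM. Pecam1, the gene of CD31, was at 20.7 to 50.4 CPM and Ptprc, the gene of CD45, at 0.0946 to 1.27 CPM, although the gate selected against both. The sum of 7 fibro-adipogenic markers ran from 1953 to 2093 CPM, and Col3a1 was the most abundant of them at 1258 to 1411 CPM. Summed markers ran from 280 to 391 CPM for smooth muscle and pericytes, from 477 to 538 CPM for Schwann cells (most of it Ncam1, which muscle cells also express), from 37.7 to 53.3 CPM for myofibres, and from 190 to 556 CPM for erythroid cells, with the highest value in Pax7KR replicate 3.

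Per length, the members differed widely in level, with Egr1 at the top and Egr3 at the bottom. Egr1 stood at 4750 ± 1085 TPM (SD, n = 6), rank 17 of all genes, and made up 0.542% to 1.06% of all reads in a library. Zfp36 (1060 ± 270 TPM, rank 131), Nr4a1 (905 ± 303 TPM, rank 150), Dusp1 (704 ± 104 TPM, rank 179), Ier2 (655 ± 161 TPM, rank 191) and Btg2 (593 ± 176 TPM, rank 207) followed, and these 5 lay within each other's spread from one neighbour to the next. Nab1 (37.6 ± 5.0 TPM), Egr2 (33.7 ± 12.9 TPM) and Nab2 (26.2 ± 2.97 TPM) formed a lower range and also overlapped from neighbour to neighbour. Egr3 was the least abundant at 6.60 ± 3.09 TPM. Its highest library, at 12.1 TPM, was just below the lowest library of Egr2, at 13.4 TPM. Egr4, the remaining EGR gene, had 0 reads in every library. Fos, of the AP-1 family, was the only other immediate early gene listed here with a TPM above that of Egr1, at 5331 TPM and rank 15.

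**Figure D1:**
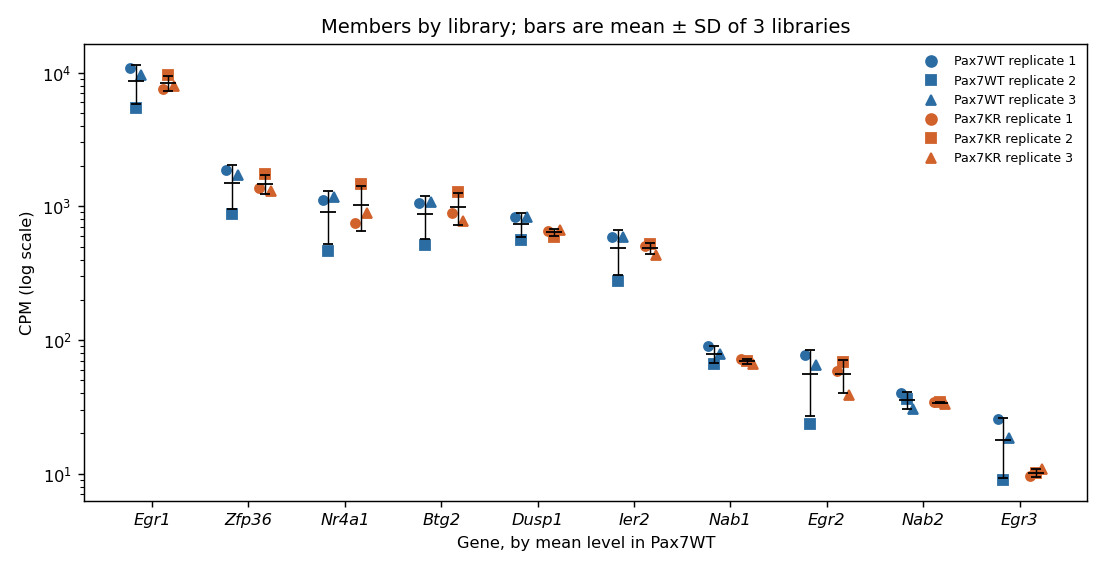
CPM of each member (log axis) in each library, with Pax7WT in blue, Pax7KR in orange, the replicate number given by the shape, and black bars for the mean ± SD of 3 libraries. The blue square, Pax7WT replicate 2, is the lowest of the 6 points in 8 of the 10 genes, and the ranges of the 2 genotypes overlap in every gene.

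None of the 10 members passed edgeR's quasi-likelihood test for a difference between the genotypes. The count called at an adjusted p under 0.1 was 0 of 10, against 0 of 17152 genes (0.0%). At an unadjusted p under 0.05 it was also 0 of 10, against 803 genes (4.68%), and DESeq2 called 0 of 10, against 30 genes (0.175%). The CPM ranges of the genotypes did not overlap in 0 of 10 members, against 10.3% of all genes. The edgeR log2 fold change was below 0 for 7 members and above 0 for 3, with a median of −0.03 (all genes, −0.004), and in limma-voom it was below 0 for 4 and above 0 for 6, with a median of 0.03. In a bulk sample, fewer cells that express a gene and less of its RNA per cell cannot be told apart.

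Egr1 (ENSMUSG00000038418, chromosome 18 from 34859823 to 34864984, plus strand) was measured at 10803, 5425 and 9617 CPM in Pax7WT replicates 1 to 3 and at 7545, 9617 and 7917 CPM in Pax7KR replicates 1 to 3. The Pax7KR values lay inside the range of the Pax7WT values, whose replicate 2 was the lowest of all 6. The means were 8615 ± 2826 and 8360 ± 1104 CPM (SD, n = 3 each), with a log2 fold change of −0.04 (SE 0.29, edgeR adjusted p = 0.998).

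Egr2 (ENSMUSG00000037868, chromosome 10 from 67535475 to 67542188, plus strand), known from peripheral nerve as the driver of myelination, was at 77.2, 23.4 and 65.3 CPM in Pax7WT and 58.8, 68.7 and 38.7 CPM in Pax7KR. Its lowest value was again that of Pax7WT replicate 2, and the 2 means, 55.3 ± 28.3 and 55.4 ± 15.3 CPM, were nearly equal. Its log2 fold change was −0.00 with an SE of 0.53, the largest SE of the members.

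Egr3 (ENSMUSG00000033730, chromosome 14 from 70077203 to 70082614, plus strand), an EGR factor that is itself a target of EGR1 in other cells, was at 25.9, 8.98 and 18.6 CPM in Pax7WT and 9.58, 10.1 and 10.9 CPM in Pax7KR. Pax7WT replicates 1 and 3 were above all Pax7KR libraries and Pax7WT replicate 2 was below all of them, while the 3 Pax7KR values lay close together. The log2 fold change of −0.82 (SE 0.39) was the largest of the members, and it did not pass the test (edgeR adjusted p = 0.992, unadjusted p = 0.0913). Egr3 is also among the genes that the study displayed from these same libraries, so its direction is not independent evidence.

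Nab1 (ENSMUSG00000002881, chromosome 1 from 52457294 to 52500679, minus strand) was at 89.8, 66.7 and 79.2 CPM in Pax7WT and 72.2, 69.2 and 66.0 CPM in Pax7KR, with a log2 fold change of −0.19 (SE 0.10, edgeR adjusted p = 0.992). Pax7WT replicates 1 and 3 were above all 3 Pax7KR libraries, and Pax7WT replicate 2 lay among them. Nab2 (ENSMUSG00000025402, chromosome 10 from 127660918 to 127668568, minus strand) was at 40.4, 36.1 and 30.4 CPM in Pax7WT and 34.2, 34.3 and 33.5 CPM in Pax7KR, with a log2 fold change of −0.07 (SE 0.10). Here Pax7WT replicate 2 was the middle value of its group and replicate 3 the lowest of all 6. The 2 co-repressors thus spread less than the EGR factors they bind, with a coefficient of variation in Pax7WT of 14.7% for Nab1 and 14.1% for Nab2, against 32.8% for Egr1, 51.1% for Egr2 and 47.6% for Egr3. Nab2 overlaps the genes Stat6 and Nemp1 on the other strand. The kit keeps the strand, but whether the quantification used it is not given in the sources used here, so the value of Nab2 is less certain than the others.

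Nr4a1 (ENSMUSG00000023034, chromosome 15 from 101254269 to 101274795, plus strand) encodes the orphan nuclear receptor NUR77. It was at 1105, 460 and 1167 CPM in Pax7WT and 744, 1461 and 888 CPM in Pax7KR. It had the widest range of the members within Pax7KR, 1.96-fold from lowest to highest, set by replicate 2. The log2 fold change was 0.18 (SE 0.49). Ier2 (ENSMUSG00000053560, chromosome 8 from 84661331 to 84662852, minus strand), a nuclear protein gene whose main transcript is a single exon, was at 589, 278 and 588 CPM in Pax7WT and 503, 523 and 435 CPM in Pax7KR. The Pax7KR values of Ier2 lay between Pax7WT replicate 2 and the other Pax7WT libraries, and the log2 fold change was 0.01 (SE 0.34).

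Btg2 (ENSMUSG00000020423, chromosome 1 from 134075170 to 134079120, minus strand), an antiproliferative factor that brings the CCR4-NOT deadenylase to mRNAs, was at 1052, 517 and 1069 CPM in Pax7WT and 891, 1284 and 780 CPM in Pax7KR. Zfp36 (ENSMUSG00000044786, chromosome 7 from 28376784 to 28380253, minus strand), which encodes tristetraprolin, was at 1884, 872 and 1712 CPM in Pax7WT and 1367, 1746 and 1303 CPM in Pax7KR. Both were lowest in Pax7WT replicate 2 and, among the Pax7KR libraries, highest in replicate 2, as were Egr1, Egr2, Nr4a1 and Ier2. Their log2 fold changes were 0.16 (SE 0.38) for Btg2 and −0.02 (SE 0.35) for Zfp36.

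Dusp1 (ENSMUSG00000024190, chromosome 17 from 26505590 to 26562128, minus strand), the phosphatase that inactivates the p38, JNK and ERK kinases, was at 826, 564 and 834 CPM in Pax7WT and 657, 593 and 667 CPM in Pax7KR. Pax7WT replicates 1 and 3 were above the Pax7KR libraries and replicate 2 was below them. The log2 fold change was −0.21 (SE 0.15, edgeR adjusted p = 0.992). Dusp1's annotation reaches into Ergic1 on the other strand only through the transcripts Dusp1-201 and Dusp1-205, which had 0 reads in the libraries.

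A single library stood apart in most members. Pax7WT replicate 2 held the lowest value of the 6 libraries in 8 of 10 members (80.0%), the exceptions being Nab1 and Nab2, against 18.5% of all genes tested. Its CPM was 0.328 of the mean of Pax7WT replicates 1 and 3 for Egr2, 0.404 for Egr3, 0.405 for Nr4a1, 0.472 for Ier2, 0.485 for Zfp36, 0.488 for Btg2, 0.531 for Egr1, 0.679 for Dusp1, 0.790 for Nab1 and 1.02 for Nab2. The median of these ratios was 0.486, against 0.995 over all genes. Summed over the members, the level was 16492, 8252 and 15181 CPM in Pax7WT and 11882, 15406 and 12139 CPM in Pax7KR. The median coefficient of variation of the members was 36.0% within Pax7WT and 11.4% within Pax7KR, against 12% and 10.3% for all genes. Pax7WT replicate 2 was also the shallowest library, while its summed satellite cell markers, 7313 CPM, were the lowest of the 6 by a smaller margin. Its summed endothelial markers were also the lowest, at 262 CPM, and its sums for the other cell types lay within the range of the other libraries. The part of depth, sorting or dissociation in its values was not tested.

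The same library stood low in the wider immediate early response. Of 50 tested genes on a list of other immediate early genes, 29 were lowest in Pax7WT replicate 2 (58.0%), and the median ratio to the other Pax7WT libraries was 0.683. Among these Fos was at 6729, 3483 and 6606 CPM in Pax7WT and 4969, 5577 and 5338 CPM in Pax7KR, and Jun, its partner in the AP-1 dimer, was at 5106, 3226 and 4928 CPM and 4502, 4787 and 4590 CPM. Junb was at 2789, 1671 and 2674 CPM in Pax7WT and 2358, 2701 and 2254 CPM in Pax7KR. Atf3, a stress-induced factor, was at 153, 37.6 and 141 CPM in Pax7WT and 71.4, 105 and 83.0 CPM in Pax7KR. In all 4 of these AP-1 genes Pax7WT replicate 2 was the lowest library, for Atf3 at 0.256 of the other Pax7WT libraries. Of 27 kinases and factors upstream of the response, such as the MAP kinases and CREB1, 5 were lowest in Pax7WT replicate 2 (18.5%), and the median ratio was 0.985. Of 20 genes of mRNA decay, such as the CCR4-NOT subunits, 5 were lowest there, with a median ratio of 0.989. Heat shock genes, which dissociation also induces, followed another order, with the highest summed level in Pax7WT replicate 3, at 17721 CPM against 11977 to 13461 CPM in the other 5 libraries.

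**Figure D2:**
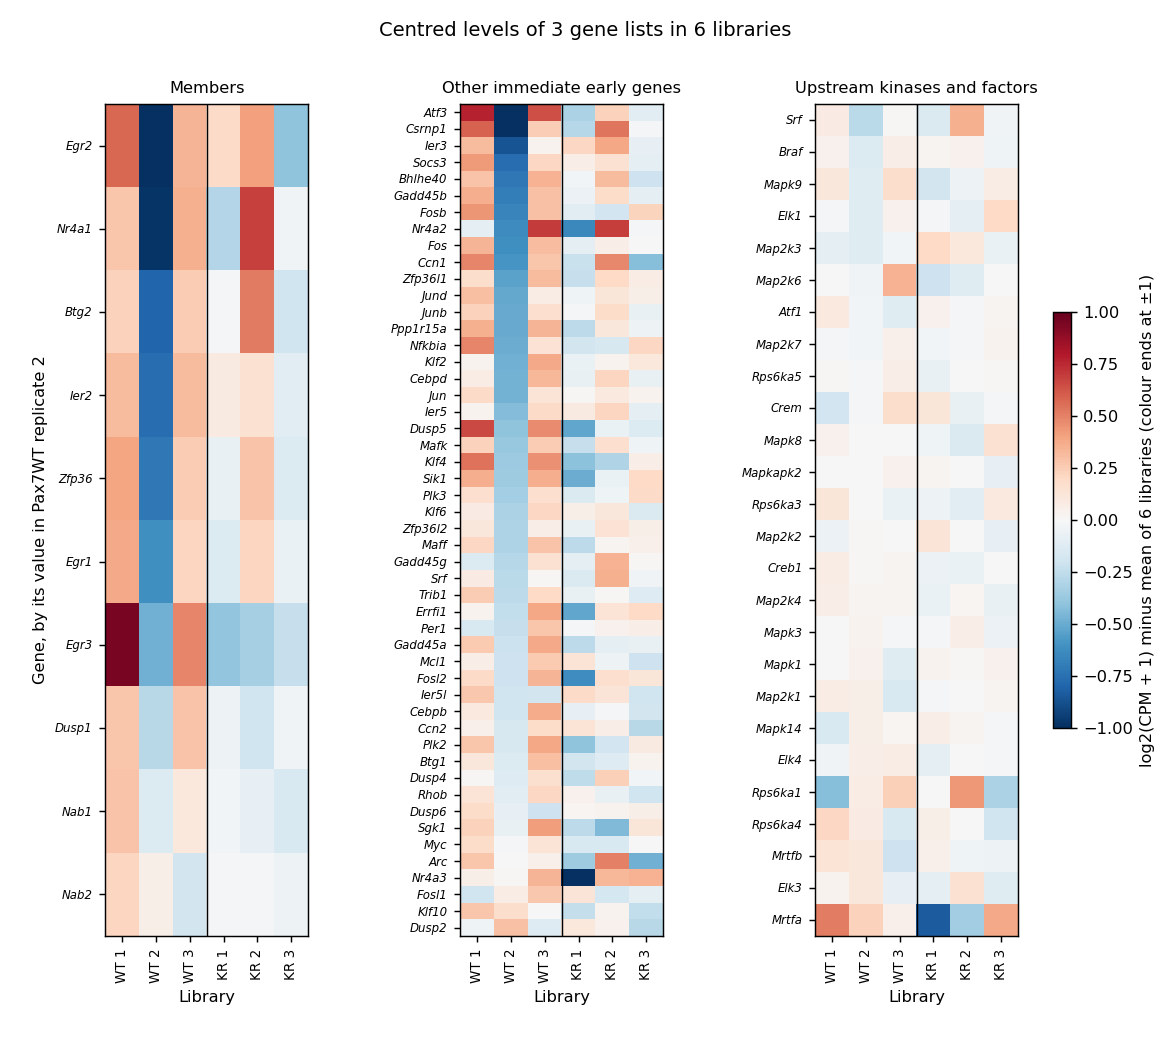
Level of each gene as log2(CPM + 1) minus its mean over the 6 libraries, for the 10 members, 50 other immediate early genes and the upstream genes named in the plot (Srf is on both lists), with columns for the libraries and genes ordered by their value in Pax7WT replicate 2. The column of Pax7WT replicate 2 is blue for every member but Nab2, palest for Nab1. It is also blue for most other immediate early genes and pale for most upstream genes.

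Without Pax7WT replicate 2 the estimates shifted. All 10 members were then lower in Pax7KR, with a median log2 fold change of −0.29, and 5 of them (Egr1, Egr3, Nab1, Ier2 and Dusp1) had an unadjusted p under 0.05 in edgeR, against 3.25% of genes in that direction. Only Egr3 was called (log2 fold change −1.13, SE 0.15, edgeR adjusted p = 0.0624), among 4 of 16942 genes called in that fit (0.0236%). Dusp1 was next among the members, with a log2 fold change of −0.38 (SE 0.07) and an adjusted p of 0.220. The library was singled out for its immediate early values, so these values describe how far 1 library moves the comparison and are no separate test. Without Pax7KR replicate 2, all 10 members were also lower in Pax7KR, with a median of −0.16 and 0 called. Without Pax7WT replicate 1, 3 members were lower and 7 higher, and their median was 0.16. Over all 6 fits that each left out 1 library, the sign held for Egr3, Nab1 and Dusp1.

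**Figure D3:**
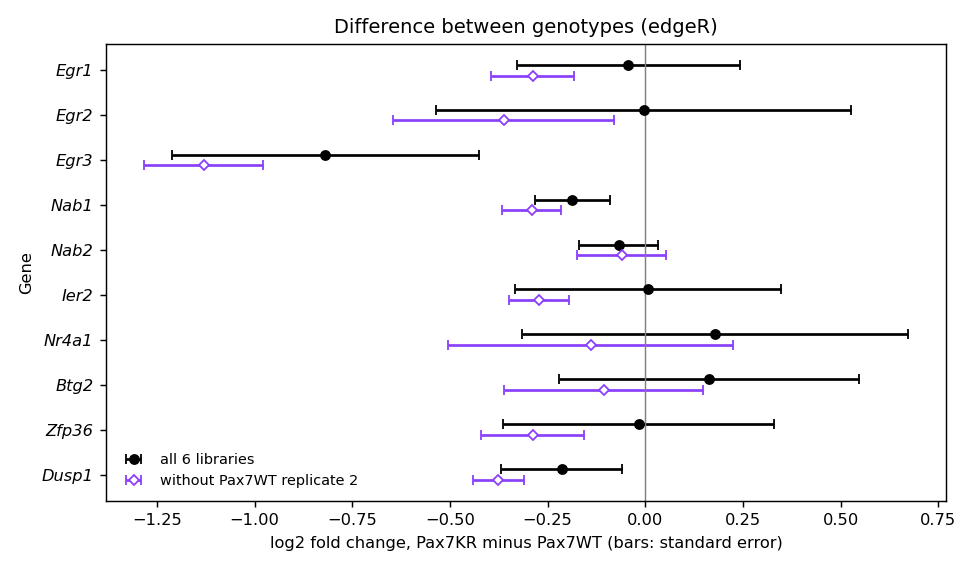
Log2 fold change of each member (Pax7KR minus Pax7WT, x axis), with bars for the standard error, from all 6 libraries (black circles) and without Pax7WT replicate 2 (purple diamonds). With all libraries every member but Egr3, Nab1 and Dusp1 lies within 1 standard error of 0, and without that library all 10 estimates are below 0.

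Members were next set against Egr1 in the same library, a ratio that does not depend on library size and that was chosen after the values were seen. Per 1000 Egr1 reads, Zfp36 was the steadiest, with 174, 161 and 178 reads in Pax7WT and 181, 182 and 165 in Pax7KR, a coefficient of variation of 5.34% and 5.52%. Its level in Pax7WT replicate 2 was thus low in nearly the same proportion as that of Egr1. Ier2 and Btg2 followed in Pax7WT, with coefficients of variation of 9.09% and 8.5%, and Nab2 varied most, at 41.4%, with 6.65 reads in Pax7WT replicate 2 against 3.74 and 3.16 in the other Pax7WT libraries.

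Egr3 stood apart on this scale. It had 2.39, 1.65 and 1.93 reads per 1000 Egr1 reads in Pax7WT and 1.27, 1.05 and 1.37 in Pax7KR, so that all 3 Pax7KR libraries lay below all 3 Pax7WT libraries. The means were 1.99 ± 0.374 and 1.23 ± 0.165 (SD, n = 3 each). The groups did not overlap with Pax7KR lower in 1.2% of all genes on this scale, and with Pax7KR higher in 1.4%. For the other 8 members the groups overlapped. The reads of Egr3 include a transcript annotated as retaining an intron, and the separation depends on it. Without that transcript, the rest of Egr3 was at 8.917 CPM in Pax7KR replicate 3, where Egr1 was at 7917 CPM. In Pax7WT replicate 3 the rest of Egr3 was at 9.425 CPM, where Egr1 was at 9617 CPM. Per Egr1 read, the rest of Egr3 was thus higher in Pax7KR replicate 3 than in Pax7WT replicate 3, so the groups overlapped. With 3 libraries a group, an exact permutation test could not reach a p under 0.10, and no test was made because the scale was chosen with the values known.

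**Figure D4:**
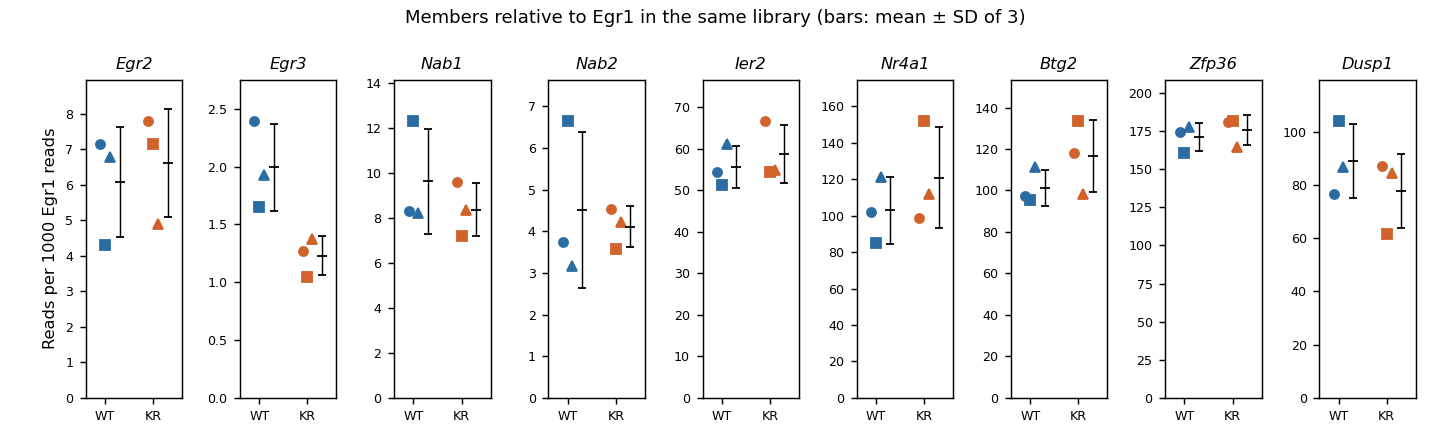
Reads of 9 members per 1000 Egr1 reads in the same library (y axes from 0, each with its own scale), with Pax7WT in blue, Pax7KR in orange, circles, squares and triangles for replicates 1 to 3, and black bars for the mean ± SD of 3 libraries. Egr3 is the gene in which the orange points, 1.05 to 1.37, all lie below the blue points, 1.65 to 2.39.

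The deposited reads are per transcript, which showed where within a gene the spread lay. Dusp1 reads were split between its spliced coding transcripts and 2 transcripts annotated as retaining an intron. The retained-intron transcripts were at 191, 247 and 228 CPM in Pax7WT and 246, 200.4 and 240 CPM in Pax7KR, a narrow range in which Pax7WT replicate 2 was the highest. All other Dusp1 transcripts were at 635, 316 and 606 CPM in Pax7WT and 411, 392 and 427 CPM in Pax7KR, so the low level of Dusp1 in Pax7WT replicate 2 lay in the spliced transcripts. The retained-intron share of Dusp1 was accordingly 43.9% in that library and 23.1% to 37.4% in the other 5.

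Nr4a1 also had its highest retained-intron share in Pax7WT replicate 2, but not its highest retained-intron level. Its retained-intron transcript was at 82.7, 57.1 and 81.9 CPM in Pax7WT and 82, 121 and 83.3 CPM in Pax7KR, while its other transcripts were at 1022, 403 and 1085 CPM and 662, 1339 and 804 CPM. The retained-intron share was 12.4% in Pax7WT replicate 2 and 7.02% to 11% in the others.

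Egr3 went the other way in Pax7WT replicate 2, which held its lowest retained-intron share. Its retained-intron transcript Egr3-202 was at 13.1, 1.56 and 9.14 CPM in Pax7WT and 4.54, 1.98 and 1.96 CPM in Pax7KR. The other Egr3 transcripts were at 12.8, 7.41 and 9.43 CPM in Pax7WT and 5.04, 8.12 and 8.92 CPM in Pax7KR, with overlapping groups and means of 9.89 ± 2.73 and 7.36 ± 2.05 CPM (SD, n = 3 each). About as many reads were assigned to Egr3-202 as to the rest of the gene in Pax7WT replicates 1 and 3 and in Pax7KR replicate 1, with shares of 50.5%, 49.2% and 47.4%, and it took 17.4% to 19.6% in the other libraries. The mean of Egr3-202 was 7.92 ± 5.84 CPM in Pax7WT and 2.83 ± 1.49 CPM in Pax7KR (SD, n = 3 each), the groups overlapped, and single transcripts were not tested. Such transcripts share exons with the coding ones, so the split between them is an estimate by the quantification, and Egr3 had only 159 to 704 reads a library.

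**Figure D5:**
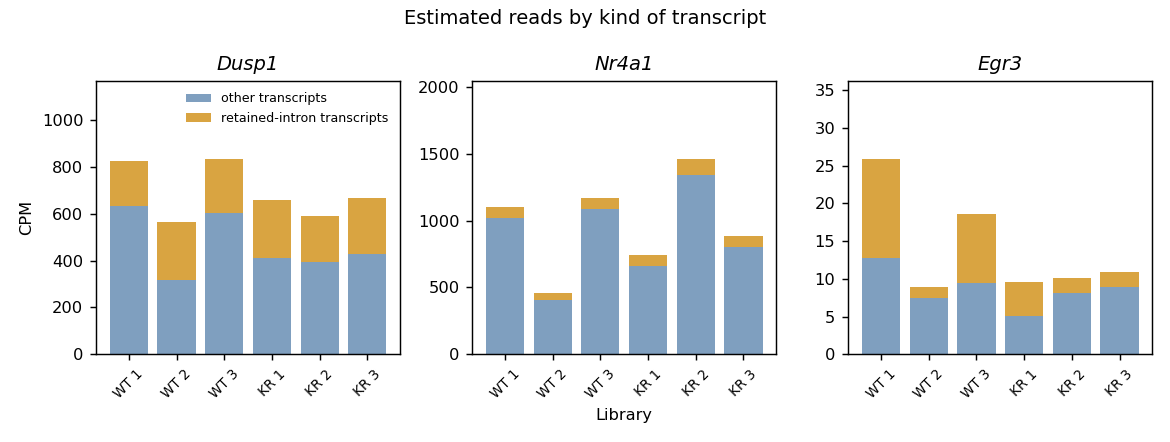
CPM (y axes from 0, each with its own scale) of Dusp1, Nr4a1 and Egr3 in each library, with transcripts annotated as retained intron in yellow on top of all other transcripts in blue. The yellow part of Dusp1 stays between 191 and 247 CPM while the blue part runs from 316 to 635 CPM, and the yellow part of Egr3 is largest in Pax7WT replicates 1 and 3.

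In the other members the transcript with the most reads held the larger part in every library. Egr1-202 held 82.6% to 84.6% of the Egr1 reads in every library, and Ier2 and Btg2 had reads on 1 transcript each. Zfp36-202, which runs through the intron of Zfp36 as a single exon, held 70.5% to 75.1%, and Nab1-201 held 87.5% to 95.0%. Egr2-201 held 86.2% to 100% of the Egr2 reads, and Nab2-201 71.5% to 84.8% of the Nab2 reads. The lowest Nab2-201 share was that of Pax7WT replicate 1, where Nab2-202 held 27.9%.

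Among the other genes of the response, none was called. Of the 50 other immediate early genes 33 were lower and 17 higher in Pax7KR, with a median log2 fold change of −0.09 (all genes, −0.004), and 2 had an unadjusted p under 0.05, against 4.68% of all genes. Both were lower, and they are named here because the count was small. Klf10, a TGF-beta-induced repressor, was at 69.5, 64.9 and 57.1 CPM in Pax7WT and 48.5, 58.7 and 48.1 CPM in Pax7KR. Its log2 fold change was −0.30 (SE 0.10). Myc was at 118, 103 and 114 CPM in Pax7WT and 93.3, 93.3 and 104 CPM in Pax7KR, with a log2 fold change of −0.20 (SE 0.07). In both genes 1 library of each genotype overlapped with the other group. The groups overlapped in all 50 genes, against 10.3% of all genes in which they did not. With 1 library left out, the median of the list ran from −0.26 (without Pax7WT replicate 2) to 0.02 (without Pax7WT replicate 3).

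Of the signalling genes upstream of the response, the differences were small. Of 27 kinases and factors 15 were lower and 12 higher, with a median of −0.01, and the groups did not overlap in 3, against 10.3% of all genes. Creb1 was at 121, 116 and 117 CPM in Pax7WT and 110, 110 and 116 CPM in Pax7KR, and Map2k4, a kinase of the JNK and p38 cascades, was at 48.3, 47.1 and 47.1 CPM and 44.2, 46.8 and 44.0 CPM. Both were lower in Pax7KR without overlap, and neither passed the test.

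Other dual-specificity phosphatases, relatives of Dusp1, gave 5 lower and 4 higher of 9, with a median of −0.02. Dusp7 was at 7.94, 9.60 and 9.99 CPM in Pax7WT and 7.92, 6.53 and 7.28 CPM in Pax7KR, and Dusp3, the most abundant, was at 137, 131 and 130 CPM and 139, 143 and 142 CPM. In both the groups did not overlap, in opposite directions, against 10.3% of all genes without overlap. The gap in Dusp7 was small, from 7.94 CPM in Pax7WT replicate 1 to 7.92 CPM in Pax7KR replicate 1. Neither gene passed the test. Of 20 genes of mRNA decay, in which Btg2 and Zfp36 act, 12 were lower and 8 higher, with a median of −0.01. Tob2, a relative of Btg2, was at 143, 149 and 157 CPM in Pax7WT and 137, 139 and 128 CPM in Pax7KR, a log2 fold change of −0.15 (SE 0.06, edgeR adjusted p = 0.992). Zfp36l1, a paralogue of Zfp36 and the most abundant gene of the list, was at 1548, 943 and 1701 CPM in Pax7WT and 1169, 1569 and 1439 CPM in Pax7KR, with its lowest value in Pax7WT replicate 2 as well. All 10 heat shock genes had a log2 fold change below 0, with a median of −0.17, 0 called and the groups overlapping in every one. The highest values of 8 of them lay in Pax7WT replicate 3. Hspa1b, the most abundant, was at 4706, 5259 and 7404 CPM in Pax7WT and 4960, 5336 and 4671 CPM in Pax7KR.

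The genes whose pattern over the 6 libraries was most like that of each EGR factor were found by the root-mean-square difference of log2(CPM + 1) after centring each gene, among 10829 genes of mean CPM 5 or more that are not members. For Egr1 they included Gadd45b, a stress-response gene, at 0.06, and Fos at 0.08, against a median of 0.34 over all genes compared. Gadd45b was at 40.5, 19.0 and 38.5 CPM in Pax7WT and 30.0, 35.6 and 29.1 CPM in Pax7KR. Among the members Zfp36 was the nearest to Egr1, at 0.07, and Egr3 the farthest, at 0.37. For Egr2 they were the transcription factor Sox9 at 0.23, Ier3 at 0.23 and Socs3, a brake on cytokine signalling, at 0.23, against a median of 0.59. For Egr3 they were the pluripotency-associated factor Klf4 at 0.21, the small GTPase gene Arl4c at 0.22 and Id4, an inhibitor of basic helix-loop-helix factors, at 0.25, against a median of 0.54. Klf4 was at 351, 187 and 331 CPM in Pax7WT and 180, 195 and 252 CPM in Pax7KR. All these likenesses rest on 6 libraries and share a value of Pax7WT replicate 2 below the other Pax7WT libraries, and they are given as a description. In Klf4, Arl4c and Id4 the lowest library was a Pax7KR one.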

How the data were processed

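RNA-sequencing of 3 Pax7WT and 3 Pax7KR samples was analysed, with genotype and replicate number from the labels. The authors quantified reads per transcript with salmon (version 1.3.0) against GENCODE transcripts with genomic decoys (build GRCm38, per the submitters' notes), and deposited estimated counts, which are not normalized, TPM values and effective transcript lengths. A deposited table of the comparison by the authors, from DESeq2 (version 1.28.1), holds log2 fold changes and p-values and was not used here.

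Estimated counts were summed per gene through GENCODE release vM21 of that build, which matched 139791 of 140992 transcripts and left 0.592% to 0.634% of the reads of a library unmatched. Sums were rounded to whole numbers. Deposited TPM were summed per gene. Effective lengths gave the average length offset of an alternative. A gene was tested if at least 2 libraries held at least 5 reads of it, with edgeR (version 4.0.16; TMM, robust quasi-likelihood test, genotype alone) in R (version 4.3.3), with Benjamini-Hochberg adjustment over all 17152 genes and a cut-off of 0.1. Standard errors came from the fold change and the F statistic. Precision is set by read number and by the spread of 3 libraries, with a common biological coefficient of variation of 13.75%. No 2 libraries agreed within sampling noise.

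The members and lists were chosen with earlier results of these data known. Named beyond the members were Fos, Jun, Junb and Atf3, up to 4 genes a list with the smallest p whose groups did not overlap, the most abundant gene of a list, and the 3 genes most like each EGR gene. Some genes that this rule names are not reported here. Markers of satellite and other cells checked the sort. Alternatives were DESeq2 (version 1.42.0), limma-voom (limma version 3.58.1), other size factors, filters, a replicate block, length offsets, no robust shrinkage, leaving out each library and the stricter cut-off of 0.05. Sequence searches and figures used Python (version 3.11.15). The other experiments of the study were not analysed here.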

Additional observations from a re-analysis of the deposited data

How the results depend on the processing

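The number of members called stayed at 0 under every alternative except leaving out Pax7WT replicate 2, which called Egr3, so that it ran from 0 to 1 over the fits with 1 library left out. Genes called in all, 0 in edgeR, were 30 by DESeq2, 45 by DESeq2 with the length offset, 157 with no filter (3 of them other immediate early genes, Plk2, Gadd45a and Klf10, all lower in Pax7KR), and 1 to 32 with 1 library left out. Signs of small log2 fold changes turned: with limma-voom Egr1 was 0.013, Egr2 0.077 and Zfp36 0.049, with DESeq2 Egr2 was 0.0034, and with the length offset Ier2 was −0.014 in edgeR and −0.012 in DESeq2. With 1 library left out, the log2 fold changes ran from −0.29 to 0.15 for Egr1, −0.36 to 0.32 for Egr2, −0.17 to 0.03 for Nab2, −0.27 to 0.17 for Ier2, −0.16 to 0.40 for Nr4a1, −0.11 to 0.33 for Btg2 and −0.29 to 0.19 for Zfp36, and without a change of sign from −1.13 to −0.44 for Egr3, −0.29 to −0.08 for Nab1 and −0.38 to −0.12 for Dusp1. The causes were not tested. The deviations of samples of the same replicate number had r = −0.000314, 0.10 and 0.0349, against −0.106 to 0.0915 for unlike numbers. Whether equal numbers share a litter or a day is not given in the labels, and these values cannot decide it. A replicate block called 13 genes and 0 members, with Egr1 at 0.0040, Egr2 at 0.089 and Zfp36 at 0.039. Egr3 had the fewest reads of the members, and the standard error was largest for Egr2 and Nr4a1.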
